A study of Danio rerio with 7 samples.

Results

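The clusters described here stood high in the control library of a zebrafish tail fin experiment and were missing, or nearly so, from every library of cut fins. Of 433380 clusters, 150 were chosen by their deposited values. Each cluster was scored by its level in the control minus its highest level in the 6 cut libraries, on the scale of log2(FPKM + 1), and the 150 highest scores were taken. FPKM counts fragments per kilobase of a feature's length and is scaled to the library's size. Because the score used all 7 libraries, the gap between the control and the cut fins is a description of the members, and it was not tested.

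RNA was taken from the tail fin of Danio rerio (zebrafish) in 7 groups of 1 library each. The control group carries no edge and no time after amputation in its labels, and the labels do not say whether its fins were uncut. The other 6 groups came from the anterior cut edge (ACE) or the posterior cut edge (PCE), each at 24, 48 and 72 h post amputation. Strain, age, genotype, any agent given and the number of fish behind a library are not stated, so each difference below is a difference between single libraries.

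A zebrafish fin regrows after amputation. Epidermis first closes the wound, and a blastema, a mass of dividing cells that come from dedifferentiated tissue of the stump, then forms beneath it and rebuilds the bony rays and the tissue between them. The study's title names calcineurin, a phosphatase that calcium activates, as a regulator of blastema polarity along the axis from fin base to fin tip. In bulk libraries such as these, fewer cells of a type and less RNA per cell cannot be told apart.

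The members cannot be named as genes. Their identifiers consist of the word Cluster, a first number, a point and a second number, and 0 of the 150 matched a zebrafish gene identifier, symbol or accession. No marker of fin tissue could therefore be looked up, and the labelled tissue was not checked against markers.

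Estimated depth relative to the control was 0.74 to 1.14 in the cut libraries, lowest in PCE 24 h and highest in ACE 24 h. Clusters above 0 numbered 170017 in the control and from 96680 in PCE 72 h to 181371 in ACE 72 h. PCE 24 h stood apart from the rest. It alone held 8130 clusters that exceeded all other libraries by at least the smallest margin among the members. Every posterior value at 24 h rests on it.

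The 150 members fell into a larger and a smaller set. In the larger, 132 clusters (88.0%) were listed at 0 in all 6 cut libraries. Their control level ran from 30.89 to 295.89 FPKM with a median of 40.33 FPKM. The other 18 clusters had some signal in at least 1 cut library and were far more abundant in the control, from 38.12 to 4946 FPKM with a median of 322.78 FPKM. These 18 held 69.9% of the members' summed control FPKM, and all 10 members with the highest control level were among them.

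**Figure D1:**
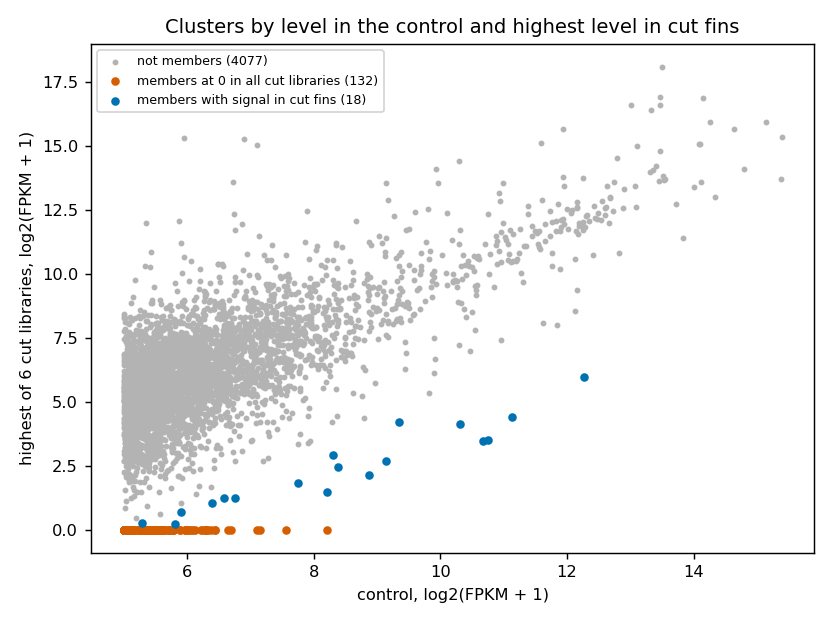
Each point is a cluster with a control level of at least 30.89 FPKM, placed by its level in the control (x axis) and its highest level in the 6 cut libraries (y axis), both as log2(FPKM + 1). The 132 members at 0 lie on the floor of the plot up to 295.89 FPKM in the control. The 18 members with signal form a band above it that reaches 4946 FPKM. At a like control level, the 4077 clusters that are not members (grey) lie above the members.

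At the lower bound of the rule the members shaded into the rest of the table. Cluster-126473.1 and Cluster-137377.0, the last members, each stood at 30.89 FPKM in the control and were listed at 0 in every cut library. The first cluster outside, Cluster-118330.211200, stood at 30.84 FPKM and was likewise listed at 0 in every cut library. For such clusters the score depends on the control level alone. Further down, 24029 clusters in all were seen in the control and in no cut library, with a median of 0.89 FPKM, and the 132 members at 0 are 0.549% of them.

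How far the members lay from other abundant clusters was set by the rule itself. Above 90 FPKM in the control there were 1263 clusters, of which 20 were members, 14 with signal and 6 at 0. The member that kept most of its control level in any cut library kept 2.72%. Every other cluster of that abundance reached at least 3.73% in some cut library, and 28 of them stayed at or under 10% in all 6. Over all 4227 clusters at or above the lowest member's control level, 157 stayed at or under 3% in all 6, of which 150 were the members. Of the 4227, 72.2% were above 0 in every cut library.

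The 2 highest scores belonged to clusters of the larger set. Cluster-137491.0 stood at 295.89 FPKM in the control, and Cluster-118330.128806 at 187.98 FPKM. Both were listed at 0 at either edge at 24, 48 and 72 h, so the values hold no trace of them in any cut library.

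The control levels of the larger set repeated. Of its 132 clusters, 70 shared their exact control value, to 2 decimals, with another member, and there were 83 distinct values in all. This is 53.0% of the set. Among the 2692 other clusters of the same range of control levels that were above 0 in all 7 libraries, a larger set, 27.0% shared their control value with another of them. The most common value, 32.20 FPKM, was held by 8 members and equals 3 times 10.73 FPKM within rounding, a value found in 16 clusters seen in the control only. Another, 31.02 FPKM, was held by 5 members and is 2 times 15.51 FPKM, a value of 20 such clusters. A further value, 34.25 FPKM, was also held by 5 members and is 2 times 17.13 FPKM within rounding, a value of 15 such clusters. Why the values recur was not tested. How many reads stand behind each member was not recovered, because feature lengths were not used here, and the loss that a listed 0 can show for these clusters is not known.

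Standing high in a single library was not particular to the control. By the smallest margin among the members, 4.995 on the log2 scale, 150 clusters of the control exceeded every other library. The same margin was exceeded by 733 clusters in ACE 24 h, 163 in ACE 48 h and 54 in ACE 72 h. At the posterior edge it was exceeded by 8130 clusters at 24 h, 1964 at 48 h and 1352 at 72 h. The control thus had fewer such clusters than 5 of the 6 cut libraries, and most of those in the cut libraries were likewise listed at 0 everywhere else, 732 of 733 in ACE 24 h and 8051 of 8130 in PCE 24 h.

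**Figure D2:**
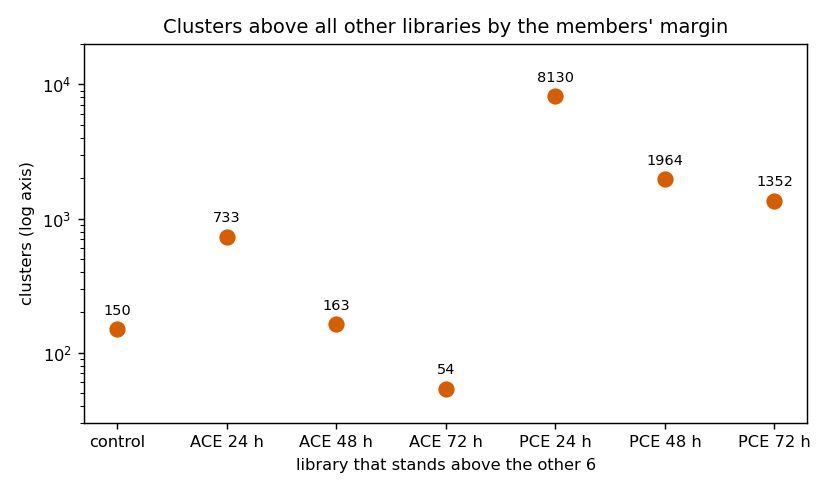
For each library (x axis), the number of clusters that exceeded all other libraries by at least the smallest margin among the members (y axis, log scale). The control has 150, between 54 in ACE 72 h and 8130 in PCE 24 h, and every PCE library has at least 1352.

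The loss in the larger set was complete at each time and edge as far as the values show, so all gradation lay in the 18 members with signal. At the anterior edge 136, 136 and 134 of the 150 members were listed at 0 at 24, 48 and 72 h. At the posterior edge 139, 142 and 136 were. Among the 4227 clusters of at least the same control level, from 4.71% (ACE 72 h) to 20.0% (PCE 24 h) were listed at 0 in a given cut library, against 89.3% to 94.7% of the members, a contrast that the rule itself set.

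Summed over all members, little FPKM was left in cut fins. At the anterior edge it was 0.517%, 0.161% and 0.30% of the control at 24, 48 and 72 h. At the posterior edge it was 0.570%, 0.0763% and 0.247%. Both edges thus had their lowest sum at 48 h and a higher one at 72 h than at 48 h. Whether the posterior sum at 72 h lay below that of 24 h depended on the scaling, since with quantile normalization it was 0.278% at 24 h and 0.329% at 72 h. With a mean of at least 5 FPKM required, which chose partly other clusters, it was 1.55% and 1.57%. A single cluster, Cluster-118330.129086, made up 36.7% to 57.4% of these sums. Without it the values were 0.389%, 0.133% and 0.166% at the anterior edge and 0.371%, 0.0581% and 0.145% at the posterior edge, again lowest at 48 h.

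Cluster-118330.129086 was the most abundant member, with 4946 FPKM in the control. At the anterior edge it had 46.9 FPKM at 24 h, 12.8 at 48 h and 37.2 at 72 h. At the posterior edge it had 61.4, 6.81 and 29.2 FPKM. It also had the highest level of any member at each of the 3 times. Its lowest value was at 48 h at either edge, and it kept from 0.138% (PCE 48 h) to 1.24% (PCE 24 h) of the control.

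Cluster-118330.129107 stood at 1271 FPKM in the control, and was likewise above 0 in every cut library. Its anterior values were 16.3, 5.76 and 6.29 FPKM in order of time, and its posterior values 5.34, 2.12 and 3.53 FPKM. In the deposited values the lowest anterior value, at 48 h, lay just above the highest posterior one, at 24 h. Under median-of-ratios scaling their order reverses, with size factors of 1.25 for ACE 48 h and 0.967 for PCE 24 h. Whether the edges overlap thus depends on the scaling.

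Low values at 48 h recurred in the members above 0 in all 6 cut libraries. Of the 8 members above 0 in all 6 cut libraries, 8 had their lowest anterior value at 48 h and 5 their lowest posterior value at 48 h, with Cluster-118330.127917 among the latter at 0.64 FPKM at both 48 and 72 h. The share among 3050 clusters above 0 in all 7 libraries with a control level at least as high was 33.2% at the anterior and 21.3% at the posterior edge. With median-of-ratios scaling the members' counts were 8 and 6, and with quantile normalization 7 and 6. The median of what these 8 kept of the control was 0.951%, 0.127% and 0.347% over the 3 times at the anterior edge, and 0.660%, 0.157% and 0.297% at the posterior edge. The same medians in the 3050 clusters were 79.0%, 77.9% and 82.5% at the anterior edge and 64.6%, 68.0% and 40.8% at the posterior edge, with no marked low point at 48 h. Some other members were above 0 in every ACE library but not in every PCE library. Of these, Cluster-118330.131719 was lowest at 48 h (4.51, 0.45 and 1.83 FPKM). Cluster-118330.127755 was highest at 48 h (2.95, 3.60 and 3.30 FPKM), and Cluster-118330.131841 was lowest at 72 h (4.49, 1.74 and 0.94 FPKM).

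**Figure D3:**
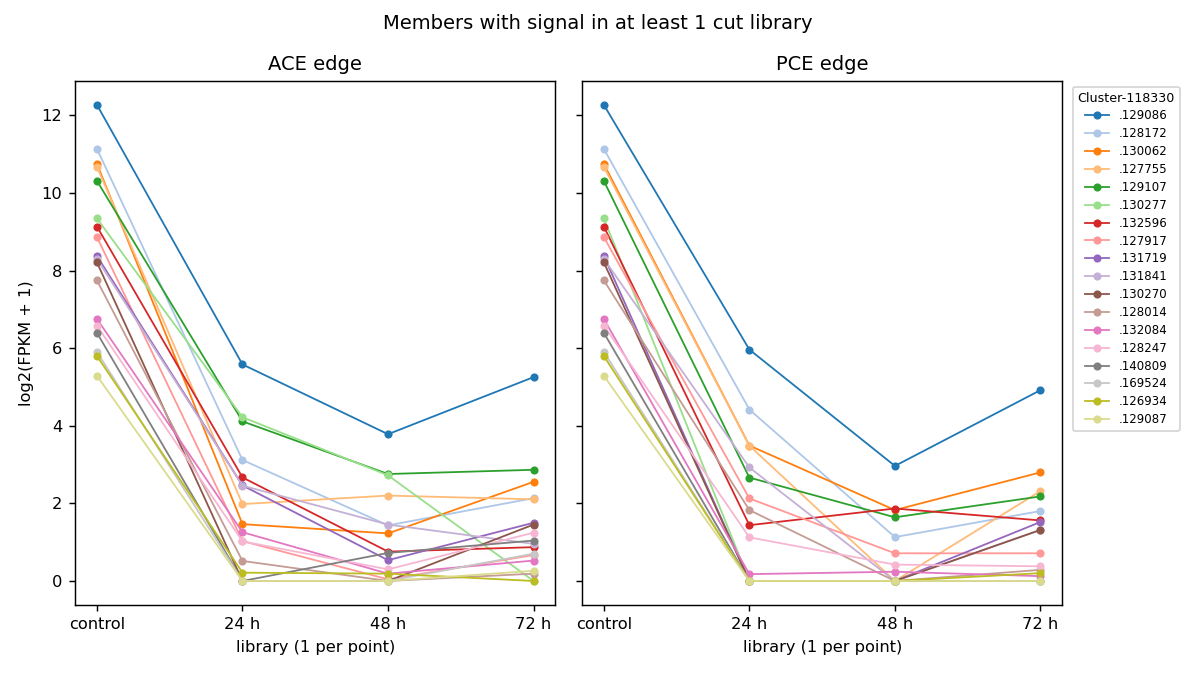
Levels of the 18 members with signal, as log2(FPKM + 1), in the control and at 24, 48 and 72 h (x axis, 1 library per point), at the anterior edge (left) and the posterior edge (right). All lines are far lower at 24 h than in the control, the 8 clusters above 0 throughout have their lowest anterior point at 48 h, and no line comes near its control level at 72 h.

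By cut library, the highest remaining level of these 18 clusters was in ACE 24 h for 6, in PCE 24 h for 7 and in ACE 72 h for 5. It was in a 48 h library or in PCE 72 h for 0. Without PCE 24 h the numbers were 11 in ACE 24 h, 5 in ACE 72 h and 2 in PCE 72 h. Scaling moved the other counts, but the 48 h libraries held the highest level of 0 members under median-of-ratios scaling and under quantile normalization as well.

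The edges differed in how many of the 18 left a trace. All 18 were above 0 in at least 1 ACE library, and 14 were above 0 in at least 1 PCE library. At 24 h, 11 were above 0 at both edges and 3 at the anterior edge only. At 48 h, 8 were above 0 at both edges and 6 at the anterior edge only. At 72 h, 13 were above 0 at both edges, 3 at the anterior edge only and 1 at the posterior edge only. The 4227 clusters of at least the same control level leaned the same way, with 9.87%, 7.0% and 13.6% above 0 at the anterior edge only at 24, 48 and 72 h and 1.99%, 1.68% and 0.402% at the posterior edge only. At 0 were 12.1%, 9.96% and 4.71% of them in the ACE libraries and 20.0%, 15.3% and 17.9% in the PCE libraries, in order of time. Beside this, fewer clusters were above 0 overall in PCE than in ACE, though hardly so at 24 h (122580 against 122838). The gap was wider at 48 h (115844 against 143247) and at 72 h (96680 against 181371). The estimated depth was lower in PCE at 24 and 72 h. What part these numbers and depths had in the edge difference was not tested.

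Cluster-118330.130277 was the clearest case of a trace at a single edge. With 648.6 FPKM in the control, it had 17.7 FPKM at 24 h and 5.60 FPKM at 48 h at the anterior edge, and was listed at 0 in ACE 72 h and in all 3 PCE libraries. The 2.72% of control kept in ACE 24 h was the highest of any member in any cut library.

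At single times there was 1 library per edge, so edge differences have no replicate check there, and members were counted where the log2 levels differed by 1 or more. PCE was higher in 5 of the 18 members with signal (27.8%) at 24 h, 1 (5.56%) at 48 h and 0 at 72 h. Among the 4227 clusters of like or higher control level the shares were 13.1%, 6.70% and 6.91%. PCE was lower in 5 of the 18 (27.8%) at 24 h, 4 (22.2%) at 48 h and 1 (5.56%) at 72 h, where the shares in the 4227 were 26.4%, 18.6% and 51.6%. The other 132 members were at 0 at either edge and could not differ. The same held for 4 of the 18 at 24 h, 4 at 48 h and 1 at 72 h.

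Over all 3 times, the edge difference was tested with limma, a linear model fitted here across the 6 cut libraries with time as a factor and 2 residual degrees of freedom. The 132 members at 0 in all 6 libraries hold no variation and could not be called, so the fit bears on 18 members. Of these 18, limma called 0, as it did 0% of the 122784 clusters tested, and 0 of the 18 had an unadjusted p under 0.05, which 3.58% of all clusters had. The rule had used these 6 libraries too, and kept the members' levels in them low relative to the control. Most members also passed the minimum mean of the fit through the control alone. The members and all clusters tested are therefore not a like comparison. Cluster-118330.130277 had a PCE minus ACE difference of -2.31 ± 1.26 (SE, log2), with an unadjusted limma p of 0.13 and an adjusted p of 0.475. Cluster-118330.129107 had a difference of -1.08 ± 0.45 (SE, log2) with an unadjusted limma p of 0.0664 and the same adjusted p, and was lower in PCE at 3 of 3 times. Neither passed the threshold of 0.05, which does not show that the edges were alike. In this fit a change of the edge difference between times counts as error.

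**Figure D4:**
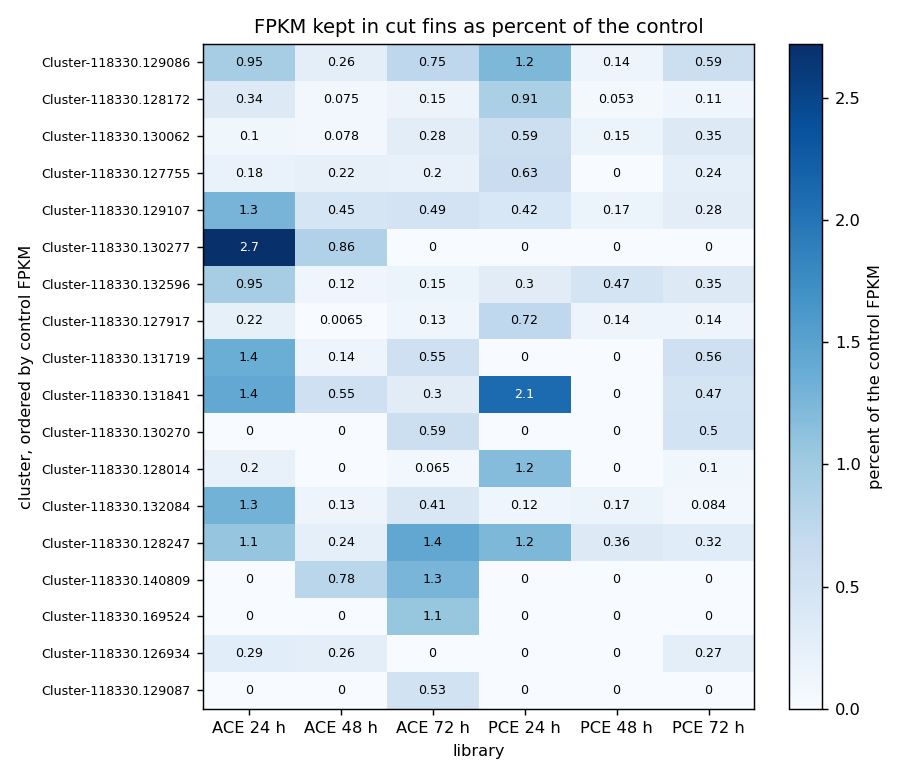
FPKM of the 18 members with signal in each cut library (x axis) as a percentage of the cluster's control FPKM, with clusters ordered by control level (y axis) and darker cells for higher percentages. By median the 48 h columns are the palest at either edge, and the darkest cell is the 2.72% of Cluster-118330.130277 in ACE 24 h.

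The 132 members at 0 had no signal at 72 h, so any return lay in the other 18. From 24 to 72 h at the anterior edge, 3 of these 18 (16.7%) were higher by at least 1 (log2) and 4 (22.2%) were lower by as much, while 4 went from a listed 0 to a value above 0. At the posterior edge 2 (11.1%) were higher and 6 (33.3%) lower, and 3 went from a listed 0 to a value above 0. Of the 4227 clusters of at least the same control level, 346 went from a listed 0 to a value above 0 at the anterior edge. At the posterior edge 304 did. The opposite change, to a listed 0 at 72 h, was seen in 2 members and 34 of the 4227 at the anterior edge. At the posterior edge it was seen in 0 members and 218 of the 4227. The balance of members higher and lower depended on the scaling. With quantile normalization 3 were higher and 1 lower at the posterior edge, and with median-of-ratios scaling 1 was higher and 5 lower at the anterior edge. In the 4227 clusters of at least the same control level, 23.4% were higher and 11.0% lower at the anterior edge, and 14.4% were higher and 28.9% lower at the posterior edge. The scale limits the members' shares, since a level under 1 FPKM cannot fall by 1 and a rise by 1 cannot end under 1 FPKM. At 24 h, 12 of the 18 had at least 1 FPKM at the anterior and 10 at the posterior edge. At 72 h, 9 had at each edge. No member at 72 h stood above 1.44% of its control level. The 3 highest shares at 72 h were all in ACE 72 h. They were 1.44% in Cluster-118330.128247, 1.27% in Cluster-118330.140809 and 1.07% in Cluster-118330.169524. Members at 1% of the control or more at either edge numbered 8 at 24 h, 0 at 48 h and 3 at 72 h. In ACE 24 h alone, without PCE 24 h, the number at 24 h was 6.

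Cluster-118330.130270 was the only member higher by at least 1 at both edges. It stood at 295.5 FPKM in the control, was listed at 0 at 24 and 48 h at either edge, and had 1.74 FPKM at the anterior and 1.49 FPKM at the posterior edge at 72 h. These levels are 0.589% and 0.504% of the control. The 72 minus 24 h difference in the limma fit was 1.39 ± 0.38 (SE) on the log2 scale, higher at 2 of 2 edges, with an unadjusted limma p of 0.0176 and an adjusted p of 0.543. It was the only one of the 18 members that vary in the fit with an unadjusted p under 0.05, which 2.92% of all clusters tested had, and limma called 0 members and 0% of all clusters for this contrast. Because the cluster was picked for its rise between these times, its p-values are a description only. As for the edges, the members and all clusters tested are not a like comparison.

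Other returns were seen at a single edge. Cluster-118330.140809, at 83.18 FPKM in the control, had 0, 0.65 and 1.06 FPKM over the 3 times at the anterior edge. This was a rise of 1.04 (log2) from 24 to 72 h, and the cluster was listed at 0 in every PCE library. Cluster-118330.169524 and Cluster-118330.129087, at 58.78 and 38.12 FPKM in the control, were above 0 in ACE 72 h only, at 0.63 and 0.20 FPKM. Cluster-118330.130062, at 1721 FPKM in the control, had 1.76, 1.34 and 4.88 FPKM over the 3 times at the anterior edge and 10.2, 2.55 and 5.96 FPKM at the posterior edge, so that its 72 h value exceeded that of 24 h at the anterior edge only. Cluster-118330.131719, at 331.1 FPKM in the control, had anterior values of 4.51, 0.45 and 1.83 FPKM, and was listed at 0 at the posterior edge at 24 and 48 h, with 1.87 FPKM at 72 h. Here the return was at the posterior edge. Its limma difference between 72 and 24 h over both edges was 0.28 ± 1.33 (SE), and that of Cluster-118330.130062 was 0.20 ± 0.78 (SE), neither larger than its error.

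In the other direction, Cluster-118330.128172 had the most negative difference of any member at the posterior edge. With 2253 FPKM in the control, it had 20.4, 1.19 and 2.49 FPKM over the 3 times at the posterior edge and 7.68, 1.70 and 3.39 FPKM at the anterior edge. Its limma difference between 72 and 24 h was -1.80 ± 0.75 (SE), lower at 2 of 2 edges, with an adjusted p of 0.543. Cluster-118330.131841 had 314.49 FPKM in the control, anterior values of 4.49, 1.74 and 0.94 FPKM and posterior values of 6.60, 0 and 1.49 FPKM. Its limma difference was -1.56 ± 1.08 (SE). Cluster-118330.132596 had 561.8 FPKM in the control, anterior values of 5.36, 0.69 and 0.83 FPKM and posterior values of 1.71, 2.65 and 1.95 FPKM. Its posterior level, unlike that of the clusters above, was highest at 48 h.

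Reading from 48 h was a comparison added after the values were seen, and 48 h had the lowest sums, which favours rises. By at least 1, more members were higher at 72 h than in the comparison with 24 h at the posterior edge only. At the anterior edge 3 of the 18 members with signal (16.7%) were higher, as from 24 h, and 1 (5.56%) was lower. At the posterior edge 5 (27.8%) were higher and 0 lower. In the 4227 clusters of at least the same control level, 18.6% were higher and 7.78% lower at the anterior edge, and 10.6% were higher and 31.7% lower at the posterior edge. Members under 1 FPKM at 48 h could likewise not be lower by 1. By any amount, 14 members were higher and 4 lower at the anterior edge, and 10 were higher and 3 lower at the posterior edge. Of the 4227 clusters, 2418 were higher and 1635 lower at the anterior edge, and 1161 were higher and 2594 lower at the posterior edge. At the posterior edge 6 members went from a listed 0 at 48 h to a value above 0 at 72 h, as did 175 of the 4227. The opposite change, to a listed 0 at 72 h, was seen there in 0 members and in 287 of the 4227.

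Stronger returns at 72 h were found outside the rule, which admits no cluster with a high level in any cut library. Of the 4227 clusters with a control level of at least 30.89 FPKM, 88 were above 0 in the control and in ACE 72 h and in no other library. They kept a median of 19.0% of the control there, 69 of them kept at least 10%, 18 kept at least 50%, and 2 were members. In PCE 72 h there were 5 such clusters, in ACE 24 h and ACE 48 h 15 each, in PCE 24 h 3 and in PCE 48 h 7. Their median share of the control was 87.9% in PCE 72 h, 13.0% in ACE 24 h and 45.1% in ACE 48 h. In PCE 24 h it was 56.9% and in PCE 48 h 40.3%. ACE 72 h thus stood out in the number of such clusters and not in the level kept. Seen in the control and at the anterior edge only, at any time, were 265 clusters, against 16 seen in the control and at the posterior edge only. With ACE 72 h left out of the score, 93 of the 150 members were still chosen, and 55 of the 57 clusters that came in were at 0 in the other 5 cut libraries. ACE 72 h also had the most of the 4227 clusters above 0, with 4028 against 3383 to 3806 in the other cut libraries, and its part in these numbers was not tested.

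**Figure D5:**
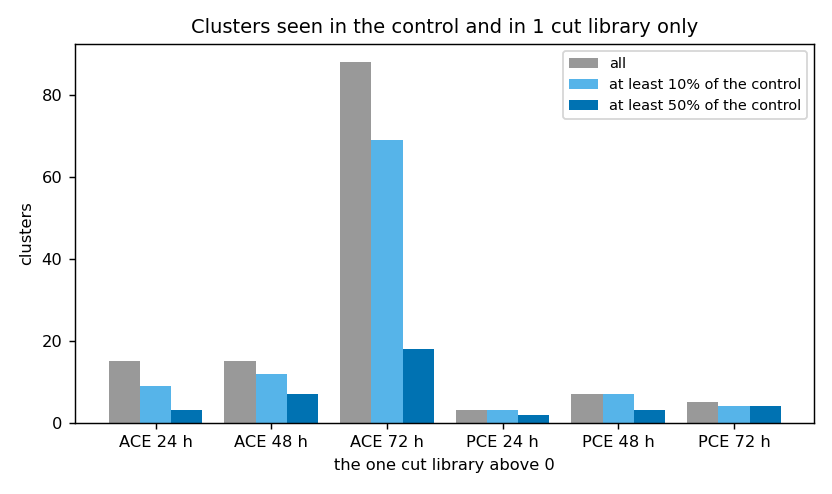
Number of clusters (y axis) with a control level of at least 30.89 FPKM that were above 0 in exactly 1 cut library (x axis), in all and by the share of the control level kept there. ACE 72 h has 88 in all and 69 at 10% or more of the control, and each of the other 5 libraries has at most 15.

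The members' identifiers were not spread like those of other clusters. The first number 118330, the one most used in the table, was carried by 123 of the 150 members, or 82.0%, against 58.6% of all clusters and 99.0% of the 4227 clusters of at least the same control level. It was carried by all 18 members with signal and by 105 of the 132 members at 0, or 79.5%. Of all clusters seen in the control only, whose median was 0.89 FPKM, 65.0% carried it. The next stretch was drawn around members after their values were seen and is a description only. Among the 18, 16 had a second number between 126934 and 132596, a stretch that holds 2.23% of the clusters with this first number. Of the clusters with this first number whose control level was at least the median of the 18, 69.0% lay in that stretch, and of the members at 0 with this first number 7.62% did. The sources used here do not say what the numbers mean.

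The other 27 members each had a first number of their own, and for 17 of them no other cluster of the table carried it. For the remaining 10, the other clusters of the same first number show whether related features were also missing from cut fins, if a shared first number marks related features. In 2 of these 10 the single other cluster was listed at 0 in the control too and shows nothing of this. In 5 the others summed to more than 10% of the member's control level in some cut library. The clusters named next were picked after their values were seen.

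Cluster-146064.3 had 61.49 FPKM in the control and was listed at 0 in every cut library. The 9 other clusters of its first number summed to 112.94 FPKM in the control and to 8.13 FPKM in ACE 72 h, and all were listed at 0 in the other 5 cut libraries. Here the whole group was listed at 0 in cut fins except in ACE 72 h. What was left there differed by cluster, with 2.82 FPKM in Cluster-146064.9 against 13.11 FPKM in the control. In Cluster-146064.8 it was 1.39 FPKM against 29.07 FPKM.

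Cluster-75725.12 showed the opposite. Its control level was 98.63 FPKM, with 0 in every cut library, while the 22 other clusters of its first number summed to 19.37 FPKM in the control and, over the 3 times, to 92.55, 34.48 and 17.09 FPKM at the anterior edge and 16.25, 25.43 and 85.41 FPKM at the posterior edge. Among them, Cluster-75725.14 was listed at 0 in the control and had 51.52 FPKM in ACE 24 h and, at the posterior edge, 77.94 FPKM at 72 h. Cluster-132275.1 likewise stood at 47.23 FPKM in the control alone, and the only other cluster of its first number, Cluster-132275.0, stood at 24.87 FPKM in PCE 24 h alone. In both groups a cluster was seen only in the control, and another of the same first number only in cut fins. Reads of near-identical transcripts can be divided between clusters. Whether this happened here was not tested, and no relation of these clusters beyond the shared first number is known.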

How the data were processed

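The authors deposited 1 table of FPKM values with a column for each of the 7 libraries. HISAT2 2.0.5, HTSeq 0.9.1 and edgeR are named, without their roles, per the submitters' processing notes. How the clusters were made, on which build and annotation, and the read totals are not given in the sources used. Relative depth was estimated from the most frequent ratio of low values (0.15 to 0.3 FPKM, clusters above 0 in at most 4 libraries). The members, the lists and the tests were chosen with earlier results of these data known. Members were taken by the score, with ties broken by mean FPKM. The limma fit was checked on simulated normal values with an edge difference larger than that of any member. That check does not show what the fit could detect here. The fit used log2(FPKM + 1), clusters with a mean of at least 1 FPKM, Benjamini-Hochberg adjustment at 0.05 and a trend of variance on mean. All 150 members passed that minimum, most of them through the control alone. Fold differences on this scale understate those of low clusters. With 1 library per edge and time, no spread between replicates was measured. The residual spread of the limma fit is how far the edge difference changed between times, and this may be technical. Its errors and p-values rest on that spread. Named clusters were the 2 highest scores, those at the bound of the rule, the 2 above 0 in most cut libraries, the highest at each time, and the 2 with the largest rise and drop from 24 to 72 h per edge. The 3 with the highest share of the control at 72 h and the 2 members above 0 in ACE 72 h only were added after their values were seen. For clusters picked by rise or drop, the limma values of that contrast are a description only. The rule's part on first numbers named none, since each held 1 member. Python 3.11.15, numpy 2.4.6, pandas 2.3.3, matplotlib 3.10.9, R 4.3.3 and limma 3.58.1 were used.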

Additional observations from a re-analysis of the deposited data

Results flagged for a closer look

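For 3 of the clusters named by rise or drop, the difference between 72 and 24 h on the log2 scale had opposite signs at the edges. Whether this change over time differed between the edges was not tested for any of them, since each edge and time had 1 library. Cluster-118330.132596 had -1.80 in ACE and 0.12 in PCE. Cluster-118330.130062 had 1.09 in ACE and -0.69 in PCE. Cluster-118330.131719 had -0.96 in ACE and 1.52 in PCE.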

How the results depend on the processing

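Of the 150 members, 132 were also chosen with a pseudocount of 0.1, 149 with median-of-ratios scaling and 148 with quantile normalization. With a mean of at least 5 FPKM required, 105 were. That minimum removes those clusters seen in the control alone whose mean lies below it. Without 1 cut library, 93 to 143 were, the lowest without ACE 72 h, where 57 other clusters entered, 55 of them at 0 in the other 5 cut libraries. With the pseudocount of 0.1, all 150 clusters chosen were at 0 in every cut library, so the members with signal drop out by construction and the 4 counts of members higher or lower at 72 h are 0. With a mean of at least 5 FPKM, 87 clusters were at 0 in all cut libraries, and at 72 against 24 h 18 were higher and 15 lower in ACE and 12 higher and 11 lower in PCE. Median-of-ratios scaling left 1 member higher in ACE, quantile normalization gave 3 higher and 1 lower in PCE and took the summed share kept in PCE 24 h from 0.570% to 0.278%, and a 1.5-fold bound gave 7 lower in ACE; the cause was not tested. Against 48 h, added after seeing the data, 1 was lower in ACE, and 5 were higher and 0 lower in PCE. Limma called 0 clusters for the edge in all settings run. For 72 against 24 h it called 19 clusters with a mean of at least 5 FPKM, 0 of them members, and from 0 to 25589 without 1 library, members among them from 0 to 2. The 25589 were called without ACE 24 h, while without any one of the other 5 cut libraries 0 were called; the cause was not tested. The 2 members called there were Cluster-118330.128172 and Cluster-118330.128014, with limma adjusted p of 0.0283 and 0.0288. Over all settings the limma adjusted p of Cluster-118330.130270 for 72 against 24 h ran from 0.0544 to 0.849. The median PCE minus ACE difference of all clusters tested was 0.17 on the log2 scale, 0.49 with median-of-ratios scaling and -0.20 with quantile normalization. Libraries could not be paired by fish or replicate because each group holds 1 library with no replicate number in its labels. The limma fit of the edges did compare them within each time. Depth limits what a listed 0 can show, since read numbers per cluster were not recovered.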
